A study of Mus musculus with 8 samples.

Results

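The genes Apoa4 and Apoc2, which encode apolipoproteins, and Lrp1, which encodes a lipoprotein receptor, were followed in the livers of Gpx3 transgenic and wildtype mice. Of 24048 probes on the array, 3 could be assigned to them, 1 for each gene. These were scl0011808.2_22-S for Apoa4, scl011813.3_68-S for Apoc2 and scl016971.1_277-S for Lrp1. A probe was assigned to a gene by the number in its identifier, read as an NCBI Gene ID. The array held probes of 7409 named genes in all. The genes were chosen by earlier results of the same comparison, in which their mean signals differed between the groups, so their group values are given as a description, without a test. The animals were 4 Gpx3 transgenic males and, as controls, 4 wildtype males labelled B6/DBA, with 1 array of liver RNA per animal. All 8 were aged 23 weeks, and all ate chow of 4% fat to the age of 11 weeks and of 6% fat after that. The promoter of the transgene, the background strain of the transgenic animals, the number of transgenic lines and the litters are not given in the sources used here. Gpx3 encodes a secreted glutathione peroxidase, and no probe carried its Gene ID, so the transgene gave no check of the labels. The 15164 probes without an assigned gene were not searched, and a Gpx3 probe may be among them. The titles of transgenic animals 1 to 3 begin alike, that of transgenic animal 4 begins otherwise, and the wildtype titles share a beginning of their own. Some endings of titles recur in both groups, 1 of them also within the transgenic group, and the meaning of neither is stated. Nothing in the labels says whether animals of a group were littermates.

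The liver exports triglyceride and cholesterol in lipoprotein particles, whose apolipoproteins hold the particle together, activate or restrain enzymes and bind receptors. Apoa4, made in the intestine and, in rodents, also in the liver, travels on triglyceride-rich particles and high-density lipoprotein, and in mice its liver RNA is known to follow the lipid load of the liver. Apoc2 is the obligatory cofactor of lipoprotein lipase, the enzyme that takes fatty acids from triglyceride-rich particles in capillaries. Lrp1 is a large endocytic receptor of hepatocytes, macrophages and fibroblasts that clears apolipoprotein E-rich remnants, protease complexes with their inhibitors and many other ligands. Apoa4 lies on chromosome 9 between Apoc3 and Apoa5, Apoc2 on chromosome 7 beside Apoc4, Apoc1 and Apoe, and Lrp1 on chromosome 10 between Nxph4 and a predicted gene, in the gene order of RefSeq.

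The 250 bases before the annotated start of each gene are shown because the first 2 genes had lower and Lrp1 higher mean signal in transgenic livers. They come from RefSeq (GRCm38.p6), and all 3 genes matched by symbol. The windows are chr9:46240594-46240843 on the plus strand for Apoa4, chr7:19677942-19678191 on the minus strand for Apoc2 and chr10:127621149-127621398 on the minus strand for Lrp1. Each is written 5′ to 3′ up to the last base before the start, with capitals for a match to a searched motif.
Apoa4: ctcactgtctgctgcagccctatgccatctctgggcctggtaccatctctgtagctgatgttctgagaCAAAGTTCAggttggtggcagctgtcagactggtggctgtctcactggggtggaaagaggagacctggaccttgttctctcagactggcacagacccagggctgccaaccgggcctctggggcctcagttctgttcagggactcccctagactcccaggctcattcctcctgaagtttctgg
Apoc2: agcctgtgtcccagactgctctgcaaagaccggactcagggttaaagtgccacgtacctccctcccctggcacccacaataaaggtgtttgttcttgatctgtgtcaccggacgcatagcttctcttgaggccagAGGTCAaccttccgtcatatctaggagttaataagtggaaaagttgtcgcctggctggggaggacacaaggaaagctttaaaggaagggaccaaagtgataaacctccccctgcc
Lrp1: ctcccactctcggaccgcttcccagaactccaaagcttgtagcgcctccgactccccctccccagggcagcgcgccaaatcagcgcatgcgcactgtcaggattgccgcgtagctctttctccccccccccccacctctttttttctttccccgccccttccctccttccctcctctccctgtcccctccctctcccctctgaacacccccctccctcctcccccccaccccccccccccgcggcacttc
The motifs, searched on both strands, were AGGTCA (the half-site of nuclear receptors), CAAAGTNCA (an element of the kind bound by HNF4), TATAAA (the TATA box), CCAAT (the CCAAT box) and CACGTG (the E-box). They were chosen with the sequences in view. No 2 matches overlapped in these windows. The capitals in Apoa4 are 1 match to CAAAGTNCA, from 182 to 174 bases before the start, and 1.19% of 32851 RefSeq promoter windows of the same length held one. The capitals in Apoc2 are 1 match to AGGTCA, from 115 to 110 bases before the start, and 14.0% of windows held one. The Lrp1 window held none of the 5 motifs. The TATA box was in 12.4%, the CCAAT box in 33.8% and the E-box in 6.02% of all windows, and in none of these 3. Base composition differed between the windows, with 57.6% G or C and 1 CpG in Apoa4, 52.0% and 6 CpG in Apoc2, and 67.2% and 13 CpG in Lrp1. The median over all windows was 52.4% G or C and 6 CpG, and 7.87% of windows had fewer CpG than that of Apoa4 and 68.5% fewer than that of Lrp1. No measurement of binding or methylation was made, so these letters describe the sequence only.

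Signals are background-subtracted intensities on a linear scale. The median signal of an array was 11.0 to 13.5 units in transgenic and 12.2 to 14.15 units in wildtype livers, and the upper quartile was 91.53 to 100.7 and 92.83 to 104.5 units. Between 33.1% and 35.3% of probes per transgenic array and between 33.2% and 33.8% per wildtype array lay below 0. The brightest probe of an array read 47379 to 59796 units in transgenic and 49938 to 56162 units in wildtype livers. For the log2 scale, values under 16 units were set to 16, and 14759 probes whose mean then exceeded that floor were tested. Every member lay above 16 units on all 8 arrays. The number of arrays limits the precision of every value. Probes without a name, 15164 of 24048, were not searched, so a listed gene with no named probe may still have one. The members may likewise have further probes among them. Of 10 hepatocyte markers listed, 3 had a named probe (Trf, Serpina1a and Apoa1), and all 3 were above 16 units in every liver, with a summed signal of 48929 to 58043 units in transgenic and 51844 to 68112 units in wildtype livers. Of 8 intestinal epithelium markers 1 had a named probe, Krt20, at 12.8 to 30.7 units in transgenic and 11.6 to 38.9 units in wildtype livers, and defining markers such as Vil1 and Fabp2 were not among those with a name here.

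Apoa4 had the largest log2 difference of the 3 genes. Its signal was 610.6, 847.1, 701.0 and 422.4 units in transgenic animals 1 to 4, against 1033.1, 1794.4, 1147.9 and 721.8 units in wildtype animals 1 to 4. Of the transgenic livers, 3 read below the lowest wildtype liver, and transgenic animal 2 lay inside the wildtype range, so the groups overlapped. The mean was 645 ± 178 units in transgenic and 1174 ± 451 in wildtype livers (SD, n = 4 each). On the log2 scale the difference, transgenic minus wildtype, was -0.83 ± 0.31 (SE from limma), or 1.78-fold lower signal in transgenic livers. The spread between animals of a group was wide, with the highest liver at 2.01 times the lowest among transgenic and 2.49 times the lowest among wildtype animals. In whole liver, fewer cells that make an RNA and less RNA per cell cannot be told apart.

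Apoc2 had the same direction at a smaller size. Transgenic animals 1 to 4 read 471.9, 565.7, 526.1 and 342.2 units, against 687.8, 723.9, 541.4 and 613.3 units in wildtype animals 1 to 4. As for Apoa4, 3 transgenic livers lay below every wildtype liver and transgenic animal 2 inside the wildtype range. The mean was 476 ± 97.4 units in transgenic and 642 ± 81.1 in wildtype livers (SD, n = 4 each), and the log2 difference was -0.45 ± 0.17 (SE), or 1.36-fold lower signal in transgenic livers. Its spread was narrower than that of Apoa4, with the highest liver at 1.65 times the lowest among transgenic and 1.34 times the lowest among wildtype animals. Transgenic animal 4 was the lowest of all 8 livers for both apolipoproteins. Without it the log2 difference of Apoc2 was -0.29 and that of Apoa4 -0.64. Wildtype animal 2 was the highest of all 8 for both, and without it the differences were -0.38 for Apoc2 and -0.60 for Apoa4.

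Lrp1 went the other way, at a dim probe. Transgenic animals 1 to 4 read 69.4, 104.6, 134.6 and 108.2 units, against 66.6, 88.8, 85.4 and 74.3 units in wildtype animals 1 to 4. Transgenic animals 2, 3 and 4 lay above every wildtype liver, and transgenic animal 1 was close to the lowest wildtype liver. The mean was 104 ± 26.8 units in transgenic and 78.8 ± 10.2 in wildtype livers (SD, n = 4 each). The log2 difference was 0.37 ± 0.20 (SE), or 1.3-fold higher signal in transgenic livers. Without transgenic animal 1 it was 0.56, and without transgenic animal 3 it was 0.24. With 50 units added to each value before log2, which damps differences at dim probes, it was 0.25.

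**Figure D1:**
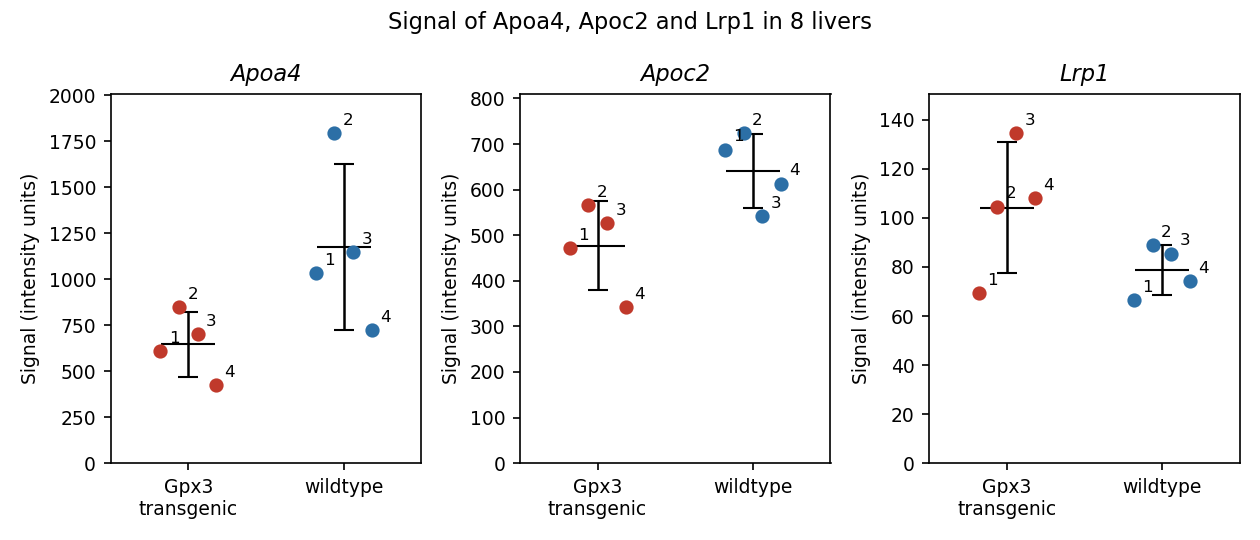
Signal in intensity units (vertical axis, from 0) of the Apoa4, Apoc2 and Lrp1 probes in each liver, numbered by animal, Gpx3 transgenic in red and wildtype in blue; bars show the mean and SD of 4 livers. In each panel 3 transgenic livers lie outside the wildtype range and 1 inside it, below it for Apoa4 and Apoc2 and above it for Lrp1.

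Among the 3 members, 0 had groups that did not overlap, while 3.56% of the 14759 tested probes did. The shares of tested probes with lower and with higher mean signal in transgenic livers were 53.3% and 46.7%. In limma, 0 of 14759 probes (0%) passed an adjusted p of 0.05 with Benjamini-Hochberg adjustment, the lowest being 0.0550. Before adjustment, 1006 probes (6.82%) had a p under 0.05, of which 476 (3.23%) were higher and 530 (3.59%) lower in transgenic livers.

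The 2 apolipoproteins ordered the livers alike within the transgenic group. Both were highest in transgenic animal 2, then in animals 3, 1 and 4. Among wildtype animals Apoa4 was highest in animal 2, then in animals 3, 1 and 4, and Apoc2 in animal 2, then in animals 1, 4 and 3. After the mean of its own group was taken off each log2 value, a step that removes the group difference by which the genes were chosen, Apoa4 and Apoc2 correlated over the 8 livers with a Pearson r of 0.71 (exact permutation within groups, two-sided p = 0.0590, adjusted p = 0.177 over 3 pairs) and a Spearman rho of 0.76 (exact permutation p = 0.0434, adjusted p = 0.130). Neither passed after adjustment. Without wildtype animals 2 and 4, the farthest from the median of Apoa4, r was 0.84 over 6 livers. For Apoa4 and Lrp1, r was 0.28 (exact permutation p = 0.502, adjusted p = 0.753) and rho 0.55 (exact permutation p = 0.205, adjusted p = 0.307), and r was 0.15 without the same 2 animals. For Apoc2 and Lrp1, r was 0.03 (exact permutation p = 0.960, adjusted p = 0.960) and rho 0.17 (exact permutation p = 0.743, adjusted p = 0.743), and r was 0.56 without transgenic animal 4 and wildtype animal 3. Lrp1 was highest in transgenic animal 3 and lowest in transgenic animal 1, so its order within the transgenic group was not that of the apolipoproteins.

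**Figure D2:**
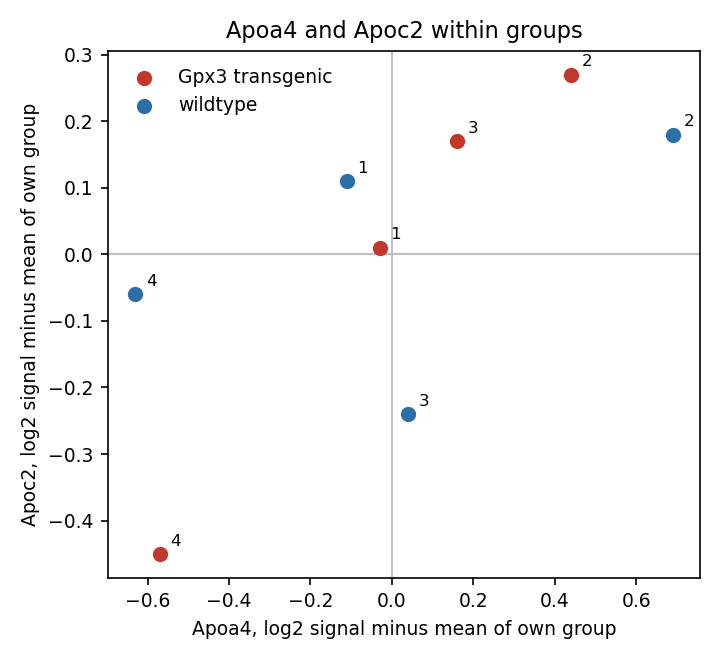
Log2 signal minus the mean of its own group for Apoa4 (horizontal axis) and Apoc2 (vertical axis) in 8 livers, numbered by animal, Gpx3 transgenic in red and wildtype in blue. Transgenic animal 4 is low for both genes and animal 2 of each group is high for both. Wildtype animal 3 is low for Apoc2 only, and wildtype animal 4 is low for Apoa4 (-0.63) but near its group mean for Apoc2 (-0.06). The Pearson r was 0.71.

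Genes whose pattern within the groups was most like that of each member were ranked among 3266 named genes above 16 units in all livers, by the same r over 8 livers, as a description. Closest to Apoa4 were Gstm3, a glutathione S-transferase (r = 0.977), Tbc1d23, a protein of endosome-to-Golgi trafficking (r = 0.965), and Cyp2c29, a liver cytochrome P450 (r = 0.964). Gstm3 read 63.1, 78.9, 70.7 and 43.5 units in transgenic animals 1 to 4, against 47.1, 67.2, 42.4 and 29.0 units in wildtype animals 1 to 4. Cyp2c29 read 555.5, 596.0, 600.5 and 403.8 units in transgenic animals 1 to 4, against 337.2, 479.2, 320.5 and 253.6 units in wildtype animals 1 to 4. Both shared the low values of animal 4 in each group with Apoa4, a likeness that the ranking by r selects for. Their group means lay the other way, higher in transgenic livers. How high the top r among 3266 genes over 8 livers would be by chance was not tested. Closest to Apoc2 were Dbndd2 (r = 0.958), Insig1, which holds back sterol-regulated transcription (r = 0.957), and Dact2, a modulator of Wnt and TGF-β signalling (r = 0.943). Insig1 read 193.8, 224.2, 213.1 and 167.3 units in transgenic animals 1 to 4, against 223.8, 211.2, 181.6 and 204.9 units in wildtype animals 1 to 4. Closest to Lrp1 were Eef1b2, a translation elongation factor subunit (r = 0.987), Rnasek (r = 0.985) and Habp4, a hyaluronan-binding protein (r = 0.945). After quantile normalization, cyclic loess, aligned array medians, other floors and the added offset, r stayed between 0.74 and 0.99 for these 9 genes, and the lowest value was that of Eef1b2. Apoc2 itself stood at rank 106 among the genes most like Apoa4.

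The gene clusters around the apolipoproteins were measured in part. Of the 20 nearest genes in RefSeq order, 4 were tested around Apoa4, 7 around Apoc2 and 3 around Lrp1, and 0 of these 14 passed the adjusted threshold in limma, against 0% of all probes. Apoa1, the main protein of high-density lipoprotein, read 37065, 33749, 35923 and 36718 units in transgenic animals 1 to 4, against 36689, 35243, 35801 and 33982 units in wildtype animals 1 to 4. The log2 difference of Apoa1 was 0.02 ± 0.06 (SE; limma adjusted p = 0.940) and that of Apoc3, an inhibitor of triglyceride clearance, 0.01 ± 0.07 (adjusted p = 0.966). The neighbours Zpr1, a zinc finger protein, and Sik3, a salt-inducible kinase, had log2 differences of -0.24 (adjusted p = 0.776) and 0.23 (adjusted p = 0.814). Beside Apoc2, Apoc4 averaged 14377 ± 1036 units in transgenic and 15483 ± 1068 in wildtype livers (SD, n = 4 each), a log2 difference of -0.11 (limma adjusted p = 0.809). Apoe, the ligand by which remnants are taken up, differed by -0.08 (adjusted p = 0.832), which was 0.00 without transgenic animal 2. Nectin2, an adhesion molecule, differed by -0.13 and Bloc1s3, a lysosome biogenesis factor, by -0.48 at a dim probe (adjusted p = 0.809 for both). Around Lrp1, the transcriptional co-repressor Nab2 differed by 0.32 (adjusted p = 0.733), Stat6, the transcription factor of interleukin 4 signalling, by 0.30 (adjusted p = 0.809) and R3hdm2 by 0.12 (adjusted p = 0.917). Apoa1, Apoc3 and Apoe read in the upper part of the signal range, and how linear the array is at that brightness was not tested.

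**Figure D3:**
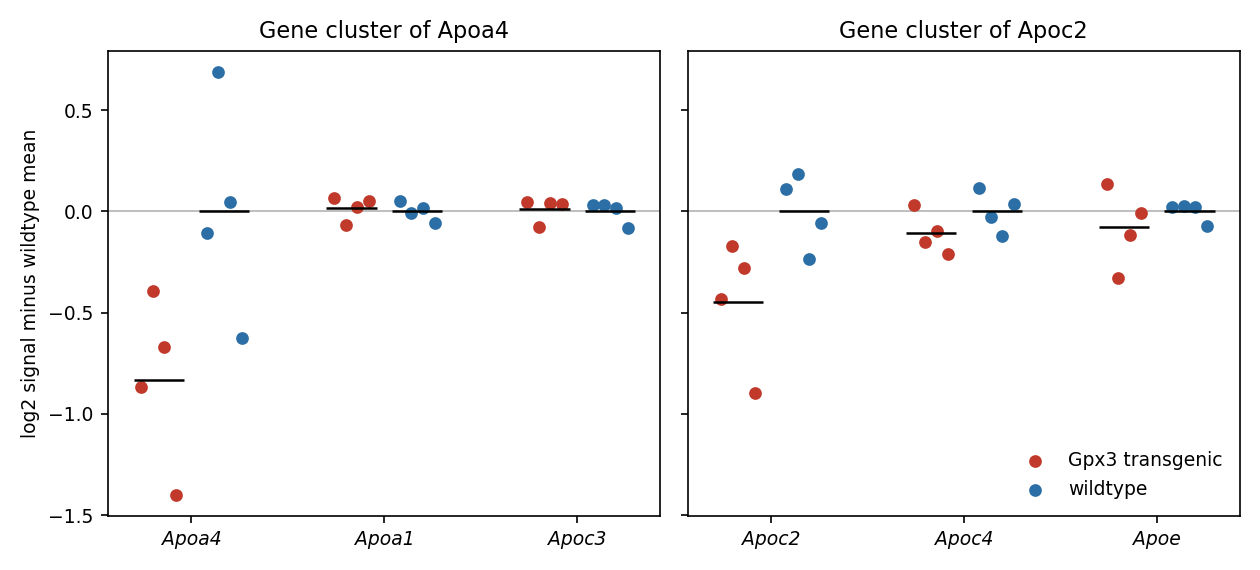
Log2 signal minus the wildtype mean of each gene (vertical axis) in 8 livers for Apoa4 with its neighbours Apoa1 and Apoc3 (left) and Apoc2 with Apoc4 and Apoe (right), Gpx3 transgenic in red and wildtype in blue; black lines are group means. Transgenic livers reach -1.40 for Apoa4 and -0.90 for Apoc2, while Apoa1 and Apoc3 stay close to 0 in all livers.

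Other lipoprotein genes were read from 9 lists by role. Of 139 listed genes other than the 3 members, 54 had a named probe and 44 were tested. In limma 0 of the 44 passed the adjusted threshold, against 0% of all probes, with adjusted p of 0.562 or more. Before adjustment 3 had a p under 0.05 and lower signal in transgenic livers (Sort1, App and Gpihbp1), beside 3.59% of all tested probes, and 0 had such a p with higher signal, beside 3.23%. Those 3 genes were also the ones of the 44 whose groups did not overlap, beside 3.56% of all tested probes. Overlap and p rest on the same values of a gene, so the 2 counts are not separate results. Mean signal was lower for 27 and higher for 17 of the 44, with a median log2 difference of -0.08, beside -0.015 over all tested probes. With array medians aligned or after cyclic loess 19 were higher.

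None of 7 other apolipoproteins tested passed, and their log2 differences ran from -0.24 to 0.02 with a median of -0.04. Apoa1, Apoa2, Apoc3 and Apoe are among them, Apoa2 at 40509 to 48065 units. Whether differences are damped at such brightness was not tested. Saa1, an acute-phase apolipoprotein of high-density lipoprotein, read 577.7, 1189.9, 672.8 and 533.1 units in transgenic animals 1 to 4, against 690.9, 950.0, 897.5 and 819.6 units in wildtype animals 1 to 4. Its log2 difference was -0.24 ± 0.25 (SE; limma adjusted p = 0.809), and its highest liver was transgenic animal 2.

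Of 7 receptors tested, 4 were higher and 3 lower, and 0 passed. Without transgenic animal 1, 2 were higher and 5 lower, and without transgenic animal 2 or wildtype animal 4, 5 were higher and 2 lower. Sdc1, a heparan sulfate proteoglycan that takes up remnants in hepatocytes, read 238.0, 290.7, 296.4 and 314.3 units in transgenic animals 1 to 4, against 308.7, 358.9, 352.3 and 323.1 units in wildtype animals 1 to 4. Only transgenic animal 4 of that group reached the wildtype range. Its log2 difference was -0.24 ± 0.10 (SE; limma adjusted p = 0.733). Vldlr, a receptor for triglyceride-rich particles, differed by -0.60 ± 0.40 at a dim probe (adjusted p = 0.809), by -0.22 without transgenic animal 3 and by -0.23 with 50 units added. Lrp6, a co-receptor of Wnt signalling, differed by 0.11 ± 0.11 (adjusted p = 0.809). The median of the receptors was 0.02, and it turned to -0.16 with a floor of 8 units.

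Among genes that fold, sort or cut the receptors, 8 of 9 tested were lower, beside 53.3% of all tested probes. The remaining 1 was higher, and 0 passed. With array medians aligned 2 were higher, and 2 or 3 were when any single array was left out. Sort1, a sorting receptor that binds apolipoprotein B, read 428.9, 494.6, 587.8 and 489.0 units in transgenic animals 1 to 4, against 756.4, 627.4, 653.3 and 680.6 units in wildtype animals 1 to 4. Every transgenic liver lay below every wildtype liver. Sort1 differed by -0.45 ± 0.11 on the log2 scale (SE; limma adjusted p = 0.562), and a second, dim Sort1 probe by 0.02. Lrpap1, the chaperone that keeps ligands off Lrp1 during folding, averaged 1531 ± 65.0 units in transgenic and 1620 ± 33.3 in wildtype livers (SD, n = 4 each), a log2 difference of -0.08 (adjusted p = 0.809). Adam17, a protease that sheds surface receptors, differed by -0.14 (adjusted p = 0.809).

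Ligands of Lrp1 had 5 lower and 2 higher of 7 tested, and 0 passed. App, the amyloid precursor protein, read 605.4, 604.6, 507.8 and 570.7 units in transgenic animals 1 to 4, against 743.3, 708.1, 617.7 and 673.5 units in wildtype animals 1 to 4. Its groups did not overlap, and its log2 difference was -0.26 ± 0.09 (SE; limma adjusted p = 0.658). Mug2, a plasma protease inhibitor of the α2-macroglobulin family, read 3504, 185.1, 187.1 and 5140 units in transgenic animals 1 to 4, against 2328, 2607, 2638 and 2392 units in wildtype animals 1 to 4. Transgenic animals 2 and 3 stood far below and animals 1 and 4 above all wildtype livers, and the log2 difference was -1.49 ± 1.16 (SE; adjusted p = 0.809). The order of the transgenic livers for Mug2, animals 4, 1, 3 and 2 from high to low, was the reverse of that of Apoa4 and Apoc2. Animals 3 and 2 were nearly equal, however. Wildtype livers ran in the order of animals 3, 2, 4 and 1 for Mug2, the reverse of neither apolipoprotein.

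Lipoprotein lipase and its partners act on the particles in which Apoc2 is carried. Lpl, the lipase itself, read 290.9, 139.8, 241.5 and 147.3 units in transgenic animals 1 to 4, against 153.0, 142.9, 146.9 and 146.4 units in wildtype animals 1 to 4. Transgenic animals 1 and 3 were high and the other transgenic livers close to the wildtype range, and the log2 difference was 0.41 ± 0.24 (SE; limma adjusted p = 0.782). Gpihbp1, which anchors the lipase on capillary endothelium, read 567.1, 571.6, 601.2 and 594.6 units in transgenic animals 1 to 4, against 697.2, 729.4, 616.1 and 652.0 units in wildtype animals 1 to 4. Its groups did not overlap, and its log2 difference was -0.20 ± 0.07 (SE; adjusted p = 0.671). Angptl4, an inhibitor of the lipase, differed by -0.24 ± 0.17 (adjusted p = 0.809). Endothelial markers had lower signal in 4 of the 4 tested, of 9 listed, beside 53.3% of all tested probes. Their summed signal was 3517 to 4294 units in transgenic and 3746 to 4501 units in wildtype livers. Most of that sum was Clec4g, which differed by -0.06 ± 0.09 (SE). Egfl7 differed by -0.31 ± 0.15, and Pecam1, below the floor in transgenic animal 1, by -1.04 ± 0.57. The part of endothelial cells in the Gpihbp1 value was not tested. Emcn, an endothelial sialomucin, differed by -0.48 ± 0.18 (adjusted p = 0.697).

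For the assembly of very low density lipoprotein 2 of 15 listed genes were tested, and 0 passed. Ces3a, a liver carboxylesterase, read 366.6, 464.5, 523.7 and 826.6 units in transgenic animals 1 to 4, against 895.7, 664.1, 783.6 and 698.4 units in wildtype animals 1 to 4, a log2 difference of -0.54 ± 0.24 (SE; limma adjusted p = 0.747). Transgenic animal 4, the lowest for Apoa4, was the highest of its group for Ces3a. Mia3, which helps to load large cargo at the endoplasmic reticulum, differed by -0.72 ± 0.35 at a probe near the floor (adjusted p = 0.768) and by -0.10 at a second probe. Of the lipid droplet genes 3 were tested and 0 passed, with Fabp4, a fatty acid carrier of adipocytes and macrophages, at 0.55 ± 0.30 (adjusted p = 0.781), Mogat1, which makes diacylglycerol, at -0.39 ± 0.69 (adjusted p = 0.870) and Plin4, a droplet coat protein, at 0.14 ± 0.76 (adjusted p = 0.961). Mogat1 differed by -0.02 without transgenic animal 2 or 3 and by -0.04 with a floor of 32. Plin4 read 393.5, 44.5, 75.9 and 414.6 units in transgenic animals 1 to 4, against 142.3, 134.5, 215.9 and 90.8 units in wildtype animals 1 to 4, and its direction turned when transgenic animal 1 (-0.31), transgenic animal 4 (-0.34) or wildtype animal 4 (-0.07) was left out. For cholesterol handling 2 of 9 listed genes were tested, Soat2, which esterifies cholesterol in hepatocytes, at -0.09 ± 0.08 and the efflux transporter Abcg1 at 0.00 ± 0.12 (adjusted p = 0.809 and 0.994), and 0 passed.

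Transcription factors known to act on apolipoprotein genes had 5 of 6 tested higher and 1 lower, and 0 passed. Of all tested probes 46.7% were higher. Among the 5, Rora differed by 0.02, Sp1 by 0.03 at a probe near the floor and Cebpa by 0.10 ± 0.28 (SE). Without transgenic animal 4 or without wildtype animal 3, 3 were higher and 3 lower. Rxra, the common partner of the lipid-sensing nuclear receptors, read 376.8, 283.4, 282.6 and 311.3 units in transgenic animals 1 to 4, against 250.2, 266.7, 261.4 and 300.9 units in wildtype animals 1 to 4, a log2 difference of 0.21 ± 0.11 (SE; limma adjusted p = 0.781). Nr1h3, the oxysterol receptor LXRα, differed by -0.14 ± 0.10 (adjusted p = 0.809), and Srebf2, which drives cholesterol synthesis and uptake, by 0.24 ± 0.15 (adjusted p = 0.798). Probes for Hnf4a and Creb3l3, known regulators of Apoa4, were not among those with a name here.

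**Figure D4:**
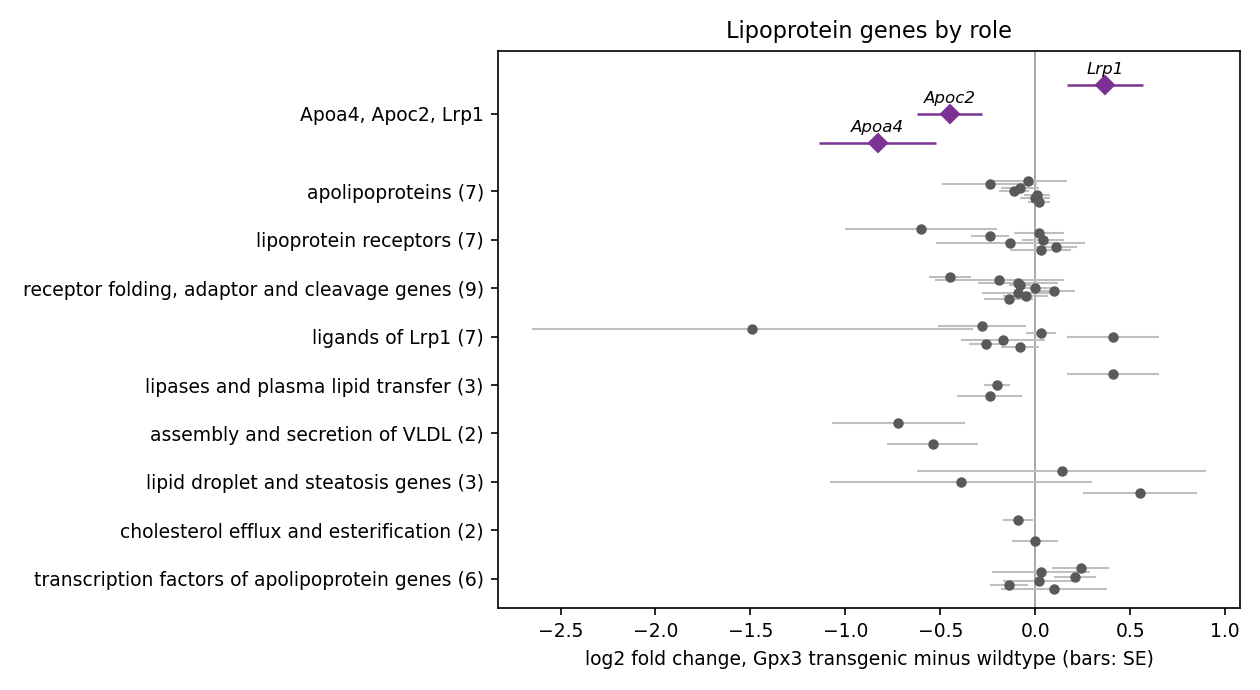
Log2 fold change with SE (horizontal axis), Gpx3 transgenic minus wildtype, for Apoa4, Apoc2 and Lrp1 (purple diamonds) and for the other tested lipoprotein genes by role (grey points, number of genes in brackets). The 7 other apolipoproteins lie between -0.24 and 0.02, against -0.83 for Apoa4 and -0.45 for Apoc2. How linear the array is at the brightest of the other apolipoproteins was not tested.

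Markers of blood had lower mean signal in transgenic livers, as Apoa4 and Apoc2 had. Of 4 blood markers 2 had a named probe, and both were above 16 units in all livers. Hba-a1, an α-globin, read 9751, 10005, 10257 and 9020 units in transgenic animals 1 to 4, against 16625, 23631, 22203 and 10781 units in wildtype animals 1 to 4. Hba-a1, like Apoa4, was highest in wildtype animal 2 and lowest in transgenic animal 4, and among wildtype livers both were lowest in animal 4. Apoc2 was highest and lowest in the same livers, but its lowest wildtype liver was animal 3, where Hba-a1 read 22203 units. The summed blood signal was 9105 to 10339 units in transgenic and 10864 to 23811 units in wildtype livers, without overlap. Most of that sum was Hba-a1, and 3.56% of all tested probes had groups that did not overlap. Hbb-b1 read 77.5 to 85.3 units in transgenic and 83.6 to 180.2 units in wildtype livers, so its groups overlapped. The part of blood in the Apoa4 and Apoc2 values was not tested. Hba-a1 differed by -0.85 ± 0.24 (SE; limma adjusted p = 0.592) and Hbb-b1 by -0.62 ± 0.23 (adjusted p = 0.671). Trf, the plasma iron carrier made by hepatocytes, was also highest in wildtype animal 2, at 22156 units. It read 4809 to 10823 units in transgenic and 5404 to 22156 units in wildtype livers. Among transgenic livers, though, Trf was highest in animal 4, and its lowest wildtype liver was animal 3.

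Markers of other cells, among them the macrophages and fibroblasts that carry Lrp1, gave overlapping sums, which rest mostly on their brightest probes. Macrophage and Kupffer cell markers, 5 of 11 with a named probe, summed to 543.4 to 963.8 units in transgenic and 555.3 to 962.3 units in wildtype livers, with Lyz2 at or below 16 units in all livers. Stellate cell and fibroblast markers, 8 of 10 with a named probe, summed to 7489 to 8367 units in transgenic and 7929 to 8462 units in wildtype livers. Most of that sum was Dcn, at 5237 to 5809 units in transgenic and 5424 to 5932 units in wildtype livers. Of 5 tested 4 were lower in transgenic livers, beside 53.3% of all tested probes, and 0 passed. Lrat, the retinol esterifying enzyme of stellate cells, read 242.0, 323.3, 227.5 and 315.7 units in transgenic animals 1 to 4, against 363.0, 384.4, 368.6 and 395.4 units in wildtype animals 1 to 4. Its groups did not overlap, and its log2 difference was -0.46 ± 0.13 (SE; limma adjusted p = 0.592). Timp2, a metalloproteinase inhibitor, differed by -0.39 ± 0.19 (adjusted p = 0.754). The collagen genes Col1a1 and Col3a1 and the smooth muscle actin gene Acta2 were at or below 16 units in all livers. Transgenic animal 3, the highest for Lrp1, was also the highest of its group for the stellate and fibroblast sum. For Lrat, though, that animal was the lowest of all 8 livers. Wildtype animal 2, the highest of its group for Lrp1, had the lowest sum of its group. The part of these cells in the Lrp1 value was not tested. Lymphocyte and antigen presentation markers, 4 of 7 with a named probe, summed to 797.1 to 1250 units in transgenic and 877.1 to 1360 units in wildtype livers, with Ptprc at or below 16 units throughout. Of 7 adipose and pancreas markers listed 1 had a named probe, Cela2a, a pancreatic elastase, which read 30.7 to 77.7 units in transgenic livers and from below 0 to 49.3 units in wildtype livers.

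**Figure D5:**
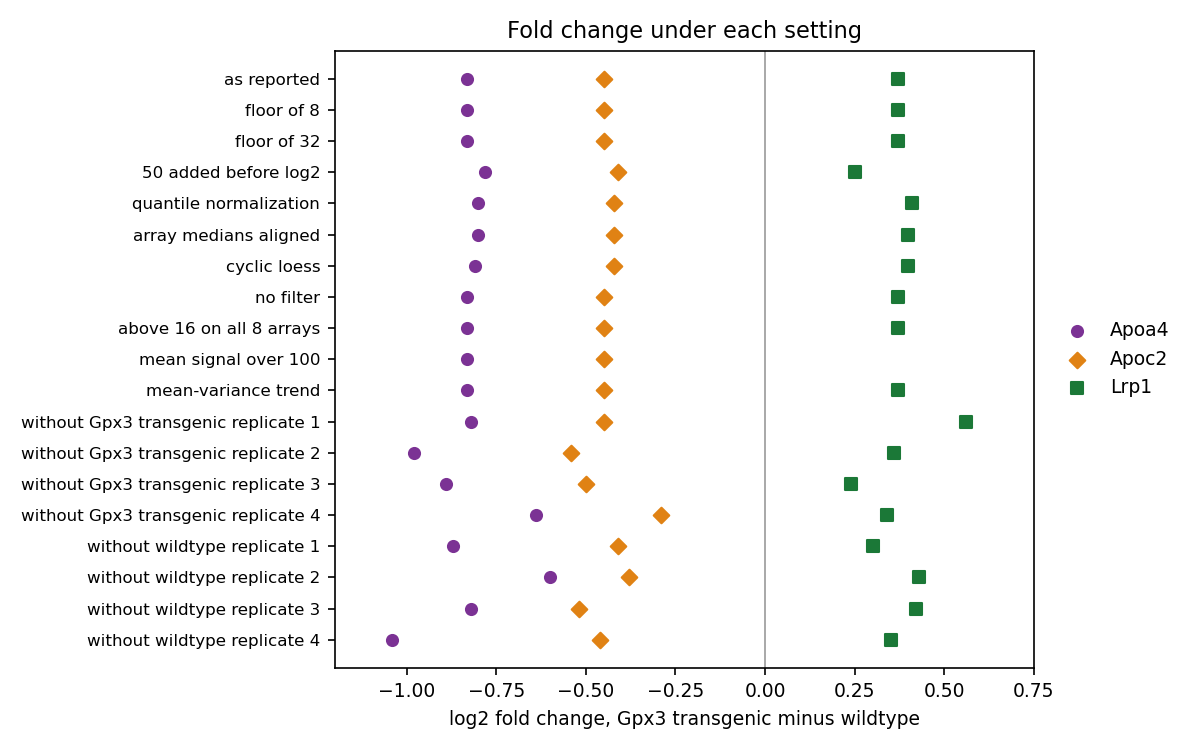
Log2 fold change (horizontal axis), Gpx3 transgenic minus wildtype, of Apoa4 (purple circles), Apoc2 (orange diamonds) and Lrp1 (green squares) as reported and under each other setting (rows). Without single arrays Apoa4 ran from -1.04 to -0.60, Apoc2 from -0.54 to -0.29 and Lrp1 from 0.24 to 0.56; Lrp1 has no point where probes of mean signal under 100 were left out.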

How the data were processed

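Liver RNA of 8 animals was hybridised to 1-colour Illumina bead arrays, and BeadStudio 1.5.1.3 is named in the submitters' processing notes. The values deposited by the authors are a background-subtracted intensity per probe; their scaling between arrays is not stated. The other deposited table (64 value columns of 8 arrays) names its columns in a way no label gives and was not used. Values under 16 were set to 16, log2 was taken, and 14759 probes with mean log2 signal above 4, the lower quartile, were fitted with limma 3.58.1 in R 4.3.3 (two-sided, Benjamini-Hochberg, threshold 0.05), after tests on simulated data. Of 9523 Gene ID numbers, 8884 were in RefSeq (GRCm38.p6). Animals are numbered in deposition order, and every p-value reflects no more than the spread between these 8 samples, which nothing in the labels says came from separate litters. The members and gene lists were chosen with earlier results of these data known. The brightest probe stood for a gene with more than 1. Named genes were the members, in each list and neighbourhood up to 3 genes of smallest p, and the 3 genes most like each member, provisional names left out. Genes named beyond that rule (Apoc3, Apoa2, Rora, Sp1, Cebpa, Trf and other markers) were chosen after their values were seen. Other settings were other floors, an offset, scalings, filters, a variance trend and leaving out each array; those for correlations were added after seeing the data. One item withheld for evaluation is not reported here.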

Additional observations from a re-analysis of the deposited data

Results flagged for a closer look

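In 88 groups of 4 livers (both groups of the 3 members and of the 41 other genes named by rule), 4 held a liver far from the other 3 by Dixon's criterion, and chance alone gives about 1 in 20. None concerned Apoa4, Apoc2 or Lrp1. Apoe read 28075 units in wildtype animal 4 and 29902 to 29992 units in the other wildtype livers. Adam17 read 252.1 units in wildtype animal 4, against 292.2 to 298.0 units in the other 3. Fabp4 read 82.2 units in transgenic animal 3, against 36.6 to 40.4 units in the remaining 3. R3hdm2 read 36.1 units in transgenic animal 1, against 6.2 to 11.2 units, below the floor, in the remaining 3.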

How the results depend on the processing

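Apoa4 and Apoc2 stayed lower and Lrp1 higher in transgenic livers under every setting tried. Leaving out single arrays gave log2 differences of -1.04 to -0.60 for Apoa4, -0.54 to -0.29 for Apoc2 and 0.24 to 0.56 for Lrp1. The other settings gave -0.83 to -0.78, -0.45 to -0.41 and 0.25 to 0.41. Lrp1 could not be fitted with the filter on mean signal over 100. The number of probes past the adjusted threshold, 0 as reported, was 1 with a floor of 32, after quantile normalization and with array medians aligned, and 0 to 1 when single arrays were left out, and none was a member. The number at an unadjusted p under 0.05 was 1006 of 14759 probes as reported. It was 663 with the filter on mean signal over 100, but only 5968 probes were tested there. Without single arrays it ran from 878 to 1364, the highest without transgenic animal 4. The median of the other lipoprotein genes ran from -0.13 to -0.03, and 13 to 20 of 44 were higher without single arrays. Without single arrays Mogat1 ran from -0.81 to -0.02, Vldlr from -0.89 to -0.22, Mug2 from -2.33 to -0.73, Bloc1s3 from -0.83 to -0.20 and Sik3 from 0.03 to 0.44. Plin4 ran from -0.34 to 0.73 without single arrays, below 0 without transgenic replicate 1 (-0.31) or 4 (-0.34) or wildtype replicate 4 (-0.07), and R3hdm2 from -0.18, without transgenic replicate 1, to 0.29; the cause was not tested. The correlation of Apoa4 with Apoc2 ran from 0.54 to 0.82. No paired analysis was possible because the labels give no replicate numbers; the title endings that recur across groups have no stated meaning, and 1 also recurs within the transgenic group.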
